A study of Mus musculus with 2 samples.

Results

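The cells described here are of the mouse optic cup at E17.5 and are called Tnmd-gate cells. They held RNA of at least 3 of 6 genes of tendon-like and stromal fibroblasts, of which tenomodulin (Tnmd) is 1. A barcode was kept when it had more than 500 genes detected and under 15% of its UMIs (molecules counted by their barcode) from mitochondrial genes. A kept cell entered the gate when at least 3 of 6 genes had a UMI (Tnmd, Prss35, Ssc5d, Thbs2, Kera and Tppp3) and at most 1 of 6 genes of orbital fibroblasts did (Pi16, Clec3b, Foxl2, Fmo1, Edn3 and Kazald1). This took 877 of 36146 cells, 627 of 17017 in the humWT library and 250 of 19129 in the humdG library. Tnmd itself had a UMI in 56.3% of these humWT and 54.4% of these humdG cells. The gate was chosen on measured UMIs, so the levels of its 12 genes in these cells are a description.

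There was 1 library for each genotype. The humWT library was pooled from optic cups of Myrf humWT/humWT embryos and the humdG library from those of Myrf humdG/humdG embryos. Both alleles were made by CRISPR on C57BL/6J and carry the human last exon of MYRF joined to the mouse gene, so the control is itself humanized. The humdG allele adds a frameshift variant at the C-terminus, carried here on both copies in every cell of the body from conception. The protocol text deposited with the samples speaks of Myrf fl/fl mice with and without Rx-cre, not of these alleles, so the genotypes rest on the sample titles and genotype labels alone. The labels say that cornea, lens and optic nerve were taken off, whereas the study's methods leave the cornea in the cup, and whether corneal cells entered the suspension could not be settled here. With 1 pooled library per genotype there is no replicate error: each value is given for each library, with a 95% interval that covers counting error only, and no test was made between the genotypes.

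Tendons and ligaments are ropes of type I collagen made by fibroblasts called tenocytes. In the eye, the extraocular muscles end in tendons that join the sclera, whose own fibroblasts make a denser and less ordered collagen coat, and the cornea holds a related stromal cell, the keratocyte. Tenocyte fate is set by the bHLH transcription factor Scleraxis (Scx) and the homeobox factor Mohawk (Mkx), and Tnmd, a type II membrane glycoprotein, is a late marker of the lineage. Keratocan (Kera), lumican (Lum), decorin (Dcn) and fibromodulin (Fmod) are small leucine-rich proteoglycans that bind collagen fibrils and set their spacing and width.

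Scx belongs to a class of factors that bind the E-box, CANNTG, so the windows before the start are shown, with any E-box in capitals, for the 5 of 10 gate and tendon genes looked up for which a window was at hand. The sequences are those of RefSeq on GRCm38.p6, read 5′ to 3′ on the strand of the gene, without any base that the GENCODE M21 model places inside the gene. The window of Tnmd is chrX:133850758-133850979, plus strand. That of Prss35 is chr9:86743383-86743632, plus strand. The window of Fmod is chr1:134037004-134037253, plus strand. Those of Thbs2 and Thbs4, which encode secreted thrombospondins, are chr17:14694263-14694512 and chr13:92794819-92795068, both on the minus strand.
Tnmd: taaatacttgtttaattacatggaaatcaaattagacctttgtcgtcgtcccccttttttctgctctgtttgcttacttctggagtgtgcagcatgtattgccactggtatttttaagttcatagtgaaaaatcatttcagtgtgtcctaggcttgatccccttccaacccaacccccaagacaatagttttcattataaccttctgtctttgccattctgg
Prss35: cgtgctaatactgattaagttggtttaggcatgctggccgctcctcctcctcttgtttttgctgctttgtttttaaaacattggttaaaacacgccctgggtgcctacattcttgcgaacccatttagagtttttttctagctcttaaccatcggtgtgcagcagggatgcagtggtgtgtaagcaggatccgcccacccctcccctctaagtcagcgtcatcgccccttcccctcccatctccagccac
Fmod: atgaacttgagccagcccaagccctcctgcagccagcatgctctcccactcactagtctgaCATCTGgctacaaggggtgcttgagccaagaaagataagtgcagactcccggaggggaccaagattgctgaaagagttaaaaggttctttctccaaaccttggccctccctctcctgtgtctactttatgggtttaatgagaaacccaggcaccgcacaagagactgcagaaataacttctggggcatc
Thbs2: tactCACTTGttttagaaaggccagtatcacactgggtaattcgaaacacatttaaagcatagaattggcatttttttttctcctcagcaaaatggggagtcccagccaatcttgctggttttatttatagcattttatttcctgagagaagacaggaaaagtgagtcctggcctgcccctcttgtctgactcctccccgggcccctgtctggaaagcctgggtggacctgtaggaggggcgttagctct
Thbs4: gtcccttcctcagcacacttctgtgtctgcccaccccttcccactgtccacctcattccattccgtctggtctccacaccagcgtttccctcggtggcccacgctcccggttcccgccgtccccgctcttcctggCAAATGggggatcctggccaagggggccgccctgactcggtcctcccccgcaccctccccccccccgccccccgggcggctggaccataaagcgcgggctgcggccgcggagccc
The letters CANNTG, which read the same on both strands in their fixed bases, were found once each in the windows of Fmod (CATCTG), Thbs2 (CACTTG) and Thbs4 (CAAATG) and were not found in the 222 bases of Tnmd or the 250 bases of Prss35. Of 32851 RefSeq promoter windows of 250 bases, 66.2% held at least 1 match, so a match is common, and none of this shows binding.

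The humWT library held 17421 barcodes and 129135207 UMIs, and the humdG library 19565 barcodes and 114319529 UMIs. Tnmd-gate cells were 3.68% of the humWT cells kept (exact 95% interval 3.41 to 3.98) and 1.31% of the humdG cells kept (1.15 to 1.48). The cells kept here are more than the study states for either genotype, so the shares are not on its denominator. Tnmd-gate cells were deep in both: their median was 11815 UMIs in humWT and 14157.5 in humdG, against 3785 and 2574 UMIs over all cells kept. Detection of 3 genes is easier in a deep cell, and so is detection of a limiting gene. Of all cells with 3 or more gate genes, 1686 in humWT and 688 in humdG, the limit on orbital fibroblast genes left out 62.8% and 63.7%. The share of cells can move with depth and dissection as well as with what was in the eye, and their parts in it cannot be told apart with 1 pool per genotype. Barcodes that passed a like gate on cartilage genes numbered 818 in humWT and 9 in humdG, with median depths of 3738.5 and 21260 UMIs. In them the cartilage list summed to 1960 and 2707 CPM and the red blood cell list to 10805 and 1021 CPM. How many of them were cartilage cells was not tested. RNA of connective tissue was also more widespread in humWT: at least 3 tendon and ligament genes had a UMI in 20.4% of all humWT cells kept and 6.001% of humdG cells, and at least 3 cartilage genes in 28.7% and 5.22%. Col1a1 had a UMI in 98.6% and 74.4% of retinal progenitors and Scx in 5.96% and 1.95%. A gate that asks for 3 genes is easier to pass where more such RNA is free, and its part in the numbers of cells was not tested.

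About as many Tnmd-gate cells sat at the edge of the gate as further inside it. Exactly 3 gate genes were found in 314 humWT and 126 humdG cells, all 6 in 42 and 8 cells. Just outside it, 1151 humWT and 482 humdG cells within the limit had 2 gate genes, with median depths of 4449 and 5503 UMIs against 7927 and 12973 UMIs in the cells with 3. A further 354 humWT and 164 humdG cells had enough gate genes but 2 limiting genes. The deepest single cell held 1.06% of all UMIs of the humWT Tnmd-gate cells but 5.24% in humdG, where it had 194910 UMIs. There were 102 barcodes present in both libraries, none of them among the Tnmd-gate cells.

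The label of tendon-like cells was checked against 15 tendon and ligament genes, of which 11 had at least 100 UMIs over both libraries, the least for which a ratio was read. The general fibroblast genes were abundant everywhere in the gate, since Col1a1, the main chain of type I collagen, had a UMI in 100% of humWT and 98.4% of humdG cells. The lineage factors were not, and Scx had a UMI in 33.0% and 23.6% of cells and Mkx in 35.4% and 31.2%. After each cell was thinned to 1000 UMIs, Scx was found in 12.6% and 11.2% of the Tnmd-gate cells, Mkx in 9.09% and 7.60%, and Tnmd in 30.9% and 28.4%. Macrophages should lack these genes and mark the free RNA of the suspension, though only those with at most 1 gate gene were taken. They gave 2.14% and 0% for Scx at the same thinned depth (0 of 125 cells, exact interval up to 2.91%). The genes of mature tendon and cartilage Comp and Chad were near absent, with 2 UMIs in humWT and 1 in humdG for Comp and 6 and 5 UMIs for Chad. The keratocyte enzyme gene Aldh3a1 had 4 UMIs in humWT and none in humdG, and Sp7, of bone-forming cells, had 3 and 4 UMIs.

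Clustering of the Tnmd-gate cells without the 12 genes of the rule gave 12 clusters, and the tendon label fitted 2 of them. Cluster 3 (78 humWT and 25 humdG cells) was led by Fmod, Col11a2, C1qtnf3, Htra1, Chst5, Pcolce2 and Egfl6, with 8 tendon and ligament genes raised. S100a9, S100a8 and Stfa1, genes of granulocytes, also stood among its 10 leading genes but came almost wholly from 1 cell. Cluster 8 (36 and 14 cells) was led by Col22a1, a collagen of the junction of muscle and tendon, Kirrel3, Cilp and Egr1, with 9 tendon and ligament genes raised. Together the tendon-like clusters held 114 humWT cells, 18.2% of the gate, and 39 humdG cells, 15.6%. The number of cells in tendon-like clusters was the same, 153, at clustering resolutions of 0.4, 0.7 and 1.0. Of 10494 genes, 126 (1.2%) were past 2-fold higher in them than in the other Tnmd-gate cells in both libraries, 5 of them among the 11 tendon and ligament genes. The clusters were made from these cells' own genes and were called tendon-like by raised genes of this same list, the gate gene Tnmd among them. Higher levels of that list were thus fixed by the choice of clusters, and the counts are a description.

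The other 10 clusters were fibroblasts of other kinds and cells that carried RNA of other tissues. Cluster 2 was led by Clec3b, Ramp1, S100a6 and the tenascin gene Tnxb, and cluster 4 by Nts, Hpse2, Pi16 and the elastin gene Eln, both with Scx at or under 5.46 CPM (UMIs of a gene in a set of cells, scaled to a fixed total of 1e6) and much Lum, at 892 and 1191 CPM. Cluster 5 was led by Pf4, a gene of megakaryocytes and macrophages with 99.4% of its UMIs there in 1 cell, and by histone genes, Ube2c and Birc5, genes of dividing cells. It held 496 CPM of the proliferation gene Mki67. Cluster 7 had the highest Col1a1 of all, 27750 CPM, with Thbs2 at 760 CPM, although it was headed by the keratin genes Krt14 and Krt5, of which 53.4% and 63.8% of the UMIs lay in 1 cell. Cluster 10 (18 and 3 cells) had Mkx at 811 CPM and Abi3bp at 3863 CPM with Scx at 50.7 CPM, so that Mkx and Scx came apart. Cluster 1 was shallow, with a median of 3341.5 UMIs, and is called here by number only. Its leading genes included hemoglobin genes and Myog, a muscle gene found in only 3.67% of its cells. Also among them were Cdk8, Gphn and Lars2, found in 99.5%, 100% and 100% of its cells. Clusters 6, 9, 11 and 12 led with genes of pigment epithelium (Ttr, Rgr), retinal progenitors (Fgf15, Hes5), mural cells (Rgs5, Acta2) and a mix of photoreceptor and pigment genes (Gngt2, Dct), with 98.8% of the Dct UMIs of cluster 12 in 1 cell. Raised markers were 7 of 8 of the pigment epithelium list in cluster 6 and 3 in cluster 12, 6 of 7 of the retinal progenitor list in cluster 9 and 6 of 6 of the mural list in cluster 11.

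**Figure D1:**
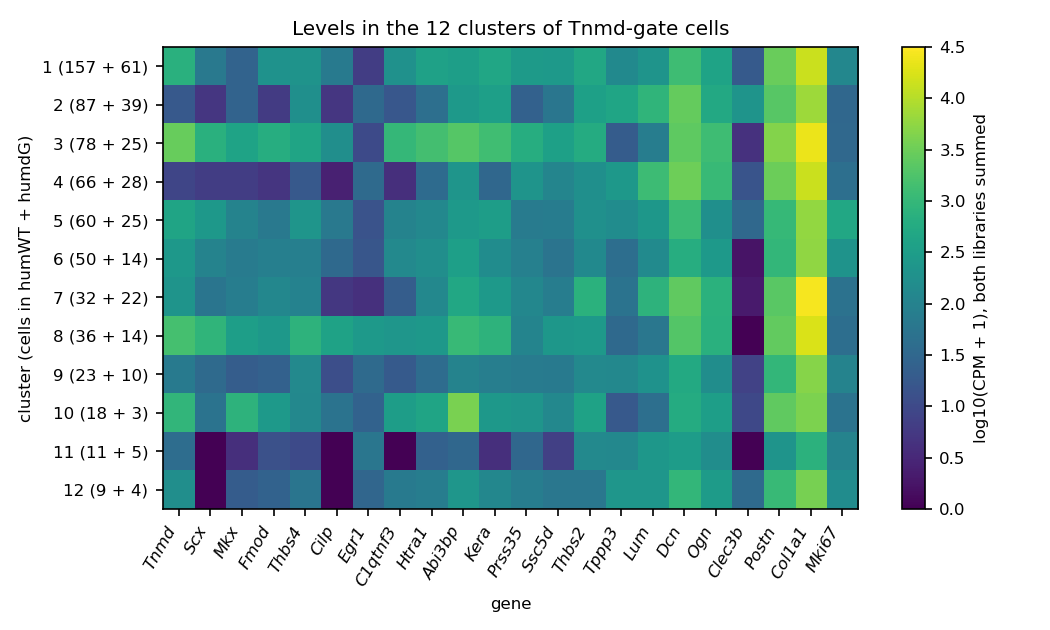
Level of 22 genes in each of the 12 clusters of Tnmd-gate cells, as log10 of CPM plus 1 with both libraries summed (color), with the number of humWT and humdG cells beside each cluster number. Scx was at 709 CPM in cluster 3 and 890 CPM in cluster 8 and under 254 CPM in the others.

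Markers of other tissues were common in the gate, at a share near that of each library as a whole. At least 3 markers of some cell type outside connective tissue were found in 61.9% of humWT and 63.2% of humdG Tnmd-gate cells, against 64.1% and 61.5% of all cells kept. Such cells were deeper, with medians of 12891 and 16226.5 UMIs against 9811 and 7682 in the Tnmd-gate cells without them. No doublet caller was run, and the part of doublets and free RNA in these counts was not tested.

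Each gate gene was then looked at in cells that it had not itself chosen, those with at least 3 of the other 5 gate genes within the same limit. Tnmd (ENSMUSG00000031250, chrX:133850980-133865577) was found in 46.3% of 510 such humWT cells and 44.9% of 207 humdG cells, at 849 and 646 CPM. In macrophages (median depths of 9711 and 8152 UMIs, against 13191.5 and 15010 in these cells) the share was 2.14% and 1.60%, in retinal progenitors 2.35% and 1.80%, and in orbital fibroblasts 1.52% and 1.08%. Orbital fibroblasts were taken by the mirrored rule, at least 3 of their 6 genes and at most 1 of the Tnmd gate (198 and 93 cells). Macrophages and retinal progenitors were likewise limited to cells with at most 1 of the 6 gate genes. These limits themselves keep the gate gene shares of the compared cells low. The higher share of Tnmd in the cells it had not chosen is thus a description.

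The other gate genes were looked at in the same way. Their shares in orbital fibroblasts and macrophages, which the rules for those cells limit, are given as a description. Kera (ENSMUSG00000019932, chr10:97606879-97613692) was found in 53.4% and 50.3% of the cells it had not chosen and in 1.52% of humWT and none of 93 humdG orbital fibroblasts, and Prss35, a serine protease-like gene, in 51.7% and 51.0% against 3.54% and 4.30%. Ssc5d, a secreted scavenger receptor protein, was at 52.2% and 51.5% against 5.56% and 1.08%. Thbs2, which encodes a matricellular protein that affects collagen fibril assembly, was the most widespread, at 78.6% and 78.4%, and was also found in 47.5% and 49.5% of orbital fibroblasts. Tppp3, a tubulin-binding protein found in tendon sheath cells, was the weakest, at 33.7% and 31.6% with 17.1% and 7.20% of macrophages holding a UMI.

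Cells were also described by which of the gate genes Tnmd and Kera had a UMI, a split that uses the rule's own values and is no test. Both genes were found in 258 humWT cells (41.1%) and 97 humdG cells (38.8%), and these had Scx at 538 and 555 CPM, Fmod at 378 and 367 CPM and Col1a1 at 19758 and 17259 CPM. The 137 humWT and 57 humdG cells with Kera but no Tnmd UMI had Scx at 19.97 and 3.55 CPM. Their Lum, 665 and 825 CPM against 167 and 134 CPM where both genes were found, and Clec3b, 128 and 123 against 10.2 and 4.198 CPM, were higher. The median depth was 12494 and 14664 UMIs in these cells, against 13565.5 and 11138 UMIs where both genes were found. Tnmd without Kera was found in 95 and 39 cells, with Scx at 69.5 and 8.74 CPM. Neither gene was found in 137 and 57 cells.

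Set beside orbital fibroblasts, the Tnmd-gate cells carried more fibrillar collagen and more of a set of tendon and matrix genes. With 10 CPM added to both sides, 175 of 10494 genes (1.67%) were past 2-fold higher in both libraries, and against all other cells kept 108 were (1.03%). The gate selected these cells, so this is a description. The genes outside the rule with the highest folds over orbital fibroblasts were Egfl6 (239 and 197 CPM against 5.31 and 4.81), C1qtnf3 (260 and 124 against 1.59 and 0.535) and Scx (255 and 181 against 12.2 and 8.55). Egfl6 and C1qtnf3 encode secreted proteins of the EGF-repeat and C1q/TNF families. Htra1, a secreted protease, was at 350 and 277 CPM against 27.6 and 12.8, and Abi3bp, a matrix-binding protein, at 707 and 528 CPM against 41.4 and 57.7. Chst5, which sulfates keratan chains of the kind carried by keratocan, was at 55.1 and 39.5 CPM and had no UMI in orbital fibroblasts of either library. Fibin was at 173 and 164 CPM against 18.1 and 9.09, Angptl1 at 476 and 399 CPM against 73.6 and 54.0, and Dgkb, a diacylglycerol kinase, at 185 and 107 CPM against 8.23 and 9.62. Aspn, a small leucine-rich proteoglycan of tendon and periodontal ligament, was at 320 and 319 CPM against 47.8 and 34.2. Gas2 was among the highest over all other cells, at 290 and 237 CPM against 66.0 and 41.2.

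Of the lists, 9 of 11 fibrillar collagens were past 2-fold higher than in orbital fibroblasts in both libraries. So were 8 of the 11 tendon and ligament genes, 1 of which, Tnmd, chose the cells. Of 11 corneal and scleral stroma genes 4 were past 2-fold higher in both and 1 was past 2-fold lower. Of 17 fibril-associated and network collagens 7 were higher and 2 lower. Col1a1 was at 13167 and 10882 CPM against 4043 and 3306, and Postn (periostin, a matricellular protein of collagen-rich tissue) at 2489 and 1923 CPM against 311 and 226. Col12a1 and Col14a1, which coat fibrils, were at 733 and 760 and at 875 and 766 CPM. Dcn and Lum were shared with orbital fibroblasts, Dcn at 1877 and 1917 against 1127 and 1204 CPM and Lum at 411 and 507 against 447 and 520 CPM. Meox2, a homeobox factor, was at 74.9 and 58.9 CPM against 4.25 and 11.8 CPM, whereas the vessel endothelium list was lower, summing to 134 and 111 CPM against 2361 and 1387 CPM.

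**Figure D2:**
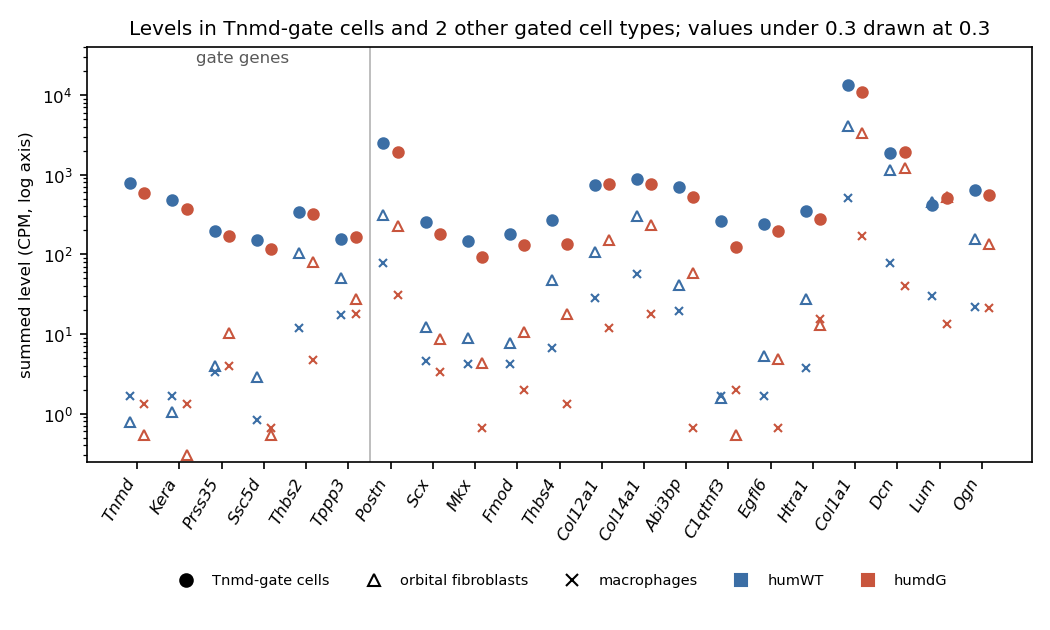
Summed level (CPM, log axis) of 21 genes in Tnmd-gate cells (circles), orbital fibroblasts (triangles) and macrophages (crosses), humWT in blue and humdG in red, with the 6 gate genes left of the line. In each library Scx, C1qtnf3 and Egfl6 lay more than 10 times above orbital fibroblasts, while Lum lay near them. The distances of the 6 gate genes were fixed by the rules that chose these cell sets, macrophages included.

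The comparison of the genotypes asked what the C-terminal variant of Myrf went with in these cells. Myrf itself was low here, at 19.5 CPM (16.5 to 22.8) in humWT and 3.76 CPM (2.06 to 6.32) in humdG, with 23.1% and 42.9% of its UMIs in 1 cell. In retinal progenitors it was at 18.7 and 7.72 CPM and in orbital fibroblasts at 5.84 and 1.07 CPM. In clusters 3 and 8 it was at 1.504 CPM in humWT and had no UMI in humdG, so tendon-like cells held next to none. Both alleles have a human last exon and reads were counted against the mouse genome, so this level is no check of the labels. Xist was at 408 and 519 CPM and the Y-linked Ddx3y at 37.6 and 27.2 CPM, so RNA of both sexes was present in each pool.

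Few genes were past 2-fold between the libraries in Tnmd-gate cells. Of 10494 genes, 22 (0.21%) were higher in humdG and 43 (0.41%) were lower, and the median log2 ratio of humdG over humWT over all of them was 0.0016. The counts depend on the choice of cells. With no limit on orbital fibroblast genes they were 232 and 25 of 13820 genes. With the gate applied after thinning they were 22 and 136 of 6040 genes. Of the 11 tendon and ligament genes with 100 or more UMIs, 2 were past 2-fold lower (Egr1 and Cilp) and none past 2-fold higher. Their median log2 ratio was -0.50, with 10 of 11 below 0. It was -0.54 in orbital fibroblasts, -1.09 in retinal progenitors and -1.05 in macrophages. Markers of some other tissues were also lower in the humdG Tnmd-gate cells. Medians were -0.47 for cartilage (8 of 8 below 0), -0.65 for mural cells (5 of 5) and -1.19 for muscle fibers (8 of 8). Other lists were higher, at 0.89 for retinal progenitors (6 of 7 above 0), 0.73 for photoreceptor precursors (5 of 5) and 0.65 for surface epithelium (3 of 3). That of ganglion, amacrine and horizontal cells was at 0.73 (5 of 5). The part of free RNA in the tendon list was not tested. Of the whole list of 15, Egr2, Comp, Chad and Cilp2 had too few UMIs to be read.

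Tnmd was at 778 CPM (758 to 797) in humWT and 587 CPM (563 to 612) in humdG, a log2 ratio of -0.41 (-0.48 to -0.34). Scx was at 255 CPM (244 to 266) and 181 CPM (167 to 195), a log2 ratio of -0.50 (-0.62 to -0.37), and Mkx at 148 and 91.7 CPM, a log2 ratio of -0.69 (-0.87 to -0.51). In these summed levels the 3 genes were lower in humdG by more than counting error, but short of 2-fold. For Tnmd, a gate gene, the direction rests on how cells were weighted and chosen: its log2 ratio was 0.059 as a mean of each cell's CPM and 0.42 with the gate applied after thinning. For Scx it was -0.31 and -0.42 under these settings, and for Mkx -0.52 and -0.73. With the tendon-like clusters 3 and 8 summed, the ratios of Tnmd, Scx and Fmod were near 0. Tnmd was at 2364 and 2494 CPM, a log2 ratio of 0.08 (-0.0051 to 0.16), Scx at 759 and 809 CPM, 0.09 (-0.05 to 0.24), and Fmod at 507 and 515 CPM, 0.02 (-0.16 to 0.20). These 3 intervals hold 0, whereas Mkx was lower there, at 408 and 294 CPM, -0.47 (-0.70 to -0.24). The sums hide clusters that differed in opposite directions. In cluster 3 Tnmd was at 2769 CPM (2679 to 2861) in humWT and 3219 CPM (3052 to 3391) in humdG, and in cluster 8 at 1599 (1506 to 1696) and 1010 CPM (880 to 1154). Fmod was at 624 and 695 CPM in cluster 3 and at 285 (247 to 328) and 146 CPM (98.9 to 207) in cluster 8, and Scx at 713 and 697 CPM and at 844 and 1038 CPM. Outside the tendon-like cells, the 3 genes were lower in humdG in cluster 6, led by pigment epithelium genes. Tnmd was at 369 and 30.1 CPM there, Scx at 156 and 4.02 CPM (147 and 2 UMIs) and Mkx at 91.3 and 38.2 CPM. In cluster 5 Scx was at 258 and 241 CPM, and in cluster 1 it was higher in humdG, at 50.5 and 111 CPM. Tnmd was also higher in humdG in cluster 1, at 630 CPM (572 to 693) and 1054 CPM (919 to 1204). It was higher in cluster 10 (752 and 1949 CPM) and cluster 12 (56.6 and 255 CPM) as well. In clusters 2, 4, 5, 7, 9 and 11 Tnmd was lower in humdG, with intervals that overlap except in cluster 2.

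Egr1, Thbs4, Cilp and C1qtnf3, like Mkx, were lower in humdG both over the gate as a whole and among the tendon-like cells. In the shallow cluster 1 this was not so for all of them: C1qtnf3 was at 165 CPM (136 to 199) in humWT and 270 CPM (204 to 350) in humdG, Thbs4 at 186 (155 to 221) and 270 CPM (204 to 350), and Mkx at 19.3 and 48.1 CPM, from 13 and 10 UMIs. Egr1, a zinc-finger factor induced by mechanical load in tendon, was at 130 CPM in the humWT and 4.62 CPM in the humdG cells of clusters 3 and 8, a log2 ratio of -4.81 (-7.099 to -3.25). That level came from cluster 8, where it was 353 CPM in 36 humWT cells and 9.40 CPM, 2 UMIs, in 14 humdG cells. In cluster 3 it was at 11.5 and 2.29 CPM, the latter 1 UMI, and over all Tnmd-gate cells at 52.7 and 11.8 CPM, a log2 ratio of -2.16 (-2.64 to -1.70). Egr1 is also an immediate early gene, and a list of 12 such genes, chosen after its value was seen, had a median log2 ratio of -0.34 over the 9 with enough UMIs, 7 of them below 0. Without cells marked by other types that median was 0.079, and with the gate applied after thinning it was -0.64. Over the Tnmd-gate cells Fos was at 19.1 and 17.7 CPM, Jun at 139 and 120 CPM and Ier2 at 35.0 and 27.7 CPM. In cluster 8 Ier2 was at 142 CPM (115 to 173) in humWT and 37.6 CPM (16.2 to 74.1) in humdG, and Jun at 289 (251 to 332) and 169 (118 to 234) CPM. Fos was at 52.1 (36.5 to 72.1) and 23.5 (7.63 to 54.8) CPM there and Junb at 26.1 (15.4 to 41.2) and 18.8 (5.12 to 48.1) CPM. In cluster 8 these 4 genes were thus lower in humdG as Egr1 was, for Ier2 and Jun with intervals that do not overlap, whereas in cluster 3 Jun was at 142 and 179 CPM and Ier2 at 14.6 and 25.2 CPM. The part of an immediate early response in the Egr1 level was not tested.

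Thbs4, thrombospondin 4, a matrix protein of muscle attachments, was at 270 CPM (259 to 282) in humWT and 134 CPM (122 to 146) in humdG over the gate, a log2 ratio of -1.01 (-1.16 to -0.87), which with 10 CPM added was not past 2-fold. Within clusters 3 and 8 it was at 619 and 378 CPM, -0.71 (-0.92 to -0.51), at 944 and 432 CPM in cluster 8 and 447 and 351 CPM in cluster 3. Cilp, cartilage intermediate layer protein, was at 93.6 and 36.6 CPM over the gate, past 2-fold lower, and at 273 and 168 CPM in clusters 3 and 8. C1qtnf3 was at 260 and 124 CPM over the gate, just past 2-fold, and at 792 and 519 CPM in clusters 3 and 8. For these genes no single cell held more than 9.74% of the UMIs of a library's Tnmd-gate cells. In retinal progenitors, where they were at most at 9.36 CPM, the log2 ratios were of the same sign, -1.42 for Thbs4, -1.01 for Cilp and -1.66 for C1qtnf3, and the part of free RNA in the values of the gate was not tested.

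**Figure D3:**
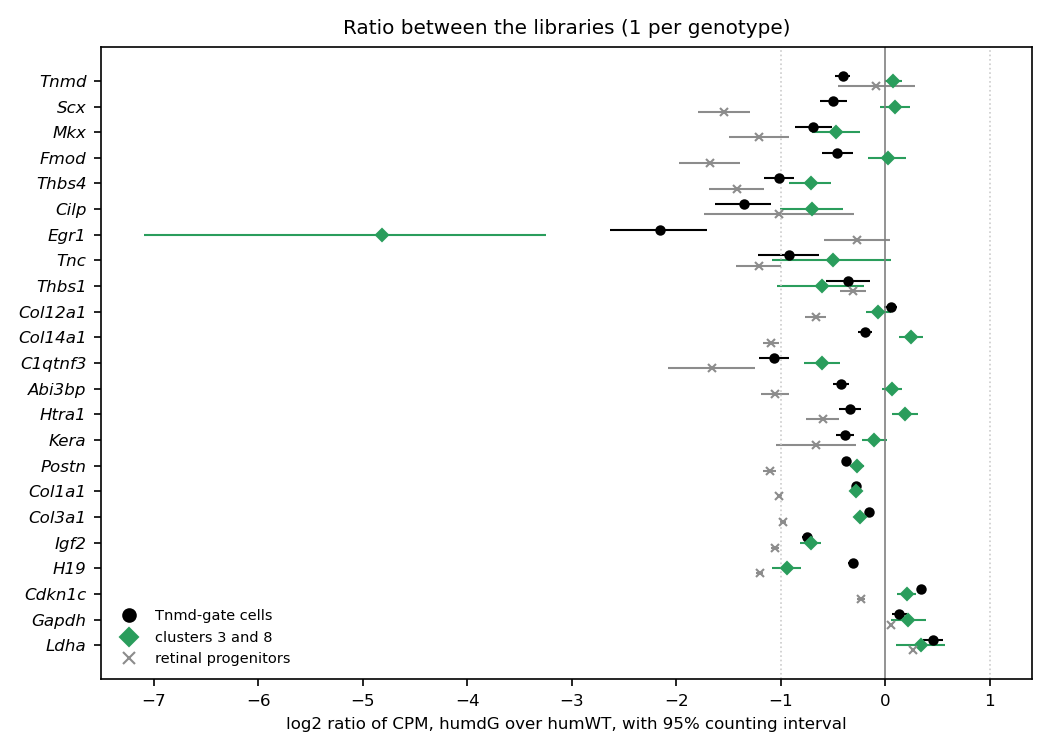
Log2 ratio of humdG over humWT for 23 genes in all Tnmd-gate cells (black), in the tendon-like clusters 3 and 8 (green) and in retinal progenitors (gray), with 95% counting intervals and dotted lines at 2-fold. In clusters 3 and 8 summed the ratios of Tnmd, Scx and Fmod lay at 0 within their intervals, with Tnmd higher in humdG in cluster 3 and lower in cluster 8, and that of Egr1 lay at -4.81.

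Collagen genes were slightly lower in the humdG Tnmd-gate cells, none past 2-fold among the fibrillar ones. All 11 fibrillar collagen genes had log2 ratios below 0, from -0.76 (Col11a2) to -0.09 (Col5a3), with a median of -0.25. Col1a1 was at 13167 and 10882 CPM, a log2 ratio of -0.28, Col1a2 at 9212 and 8026 CPM, -0.20, and Col3a1 at 6425 and 5752 CPM, -0.16. In clusters 3 and 8 the median was -0.28, in orbital fibroblasts -0.29, in retinal progenitors -1.02 and in macrophages -1.53. The clusters of the gate did not share a direction. Col1a1 was at 10312 and 24339 CPM and Col3a1 at 4537 and 9230 CPM in the shallow cluster 1, which held 25.04% and 24.4% of the Tnmd-gate cells, and Col1a1 was also higher in humdG in clusters 9, 10 and 11. In cluster 7 Col1a1 was at 32271 and 22125 CPM and in cluster 8 at 19707 and 11651 CPM. The sign of the median rests on weighting cells by their UMIs, since as a mean of each cell's CPM it was 0.058, and on the choice of cells, since it was 0.012 when the gate was applied after thinning each cell to 1000 UMIs.

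The other matrix lists had medians below 0 in the summed levels, but for most of them the sign turned with the weighting or choice of cells. As a mean of each cell's CPM the median was 0.089 for small leucine-rich proteoglycans and 0.11 for collagen processing. With the gate applied after thinning it was 0.061 for the proteoglycans and 0.022 for fibril-associated and network collagens, and without cells marked by other types it was -0.040 for matrix proteases. Of 17 fibril-associated and network collagens 14 were below 0, with a median of -0.27 and 1 past 2-fold lower, Col8a1, at 295 and 127 CPM, of which 25.2% of the humWT UMIs came from 1 cell. The basement membrane genes Col4a1 and Col4a2 had log2 ratios of -0.43 and -0.54, whereas Col12a1 was at 0.05. Among 10 small leucine-rich proteoglycans the median was -0.17, with Kera at -0.38, Fmod at -0.46, Dcn at 0.03 and Lum at 0.30. Of 28 elastic fiber and matricellular genes 23 were below 0 and none past 2-fold, with a median of -0.20, which as a mean of each cell's CPM was 0.030. In this list Eln was at -0.56, Tnc at -0.92 and Mfap4 at 0.16. Collagen-modifying enzymes and chaperones were closest to 0 of the matrix lists, with a median of -0.10 over 22 genes, Serpinh1 at -0.10, Lox at -0.33 and Ppib at 0.16. Matrix proteases and their inhibitors had a median of -0.31 over 22 genes, with none past 2-fold.

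The scleral and corneal stroma list had a median of -0.19 over 11 genes, 2 of them past 2-fold lower, Col8a1 and Ptgds. That median was 0.049 with the gate applied after thinning and -0.51 in clusters 3 and 8. Ptgds, prostaglandin D synthase, was at 388 and 99.0 CPM over the gate, but 29.9% and 45.7% of its UMIs lay in 1 cell, it was at 28.1 and 12.3 CPM in clusters 3 and 8, and it led cluster 6 with pigment epithelium genes. Ecrg4 was the highest, at 183 and 282 CPM, a log2 ratio of 0.63 (0.51 to 0.74).

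**Figure D4:**
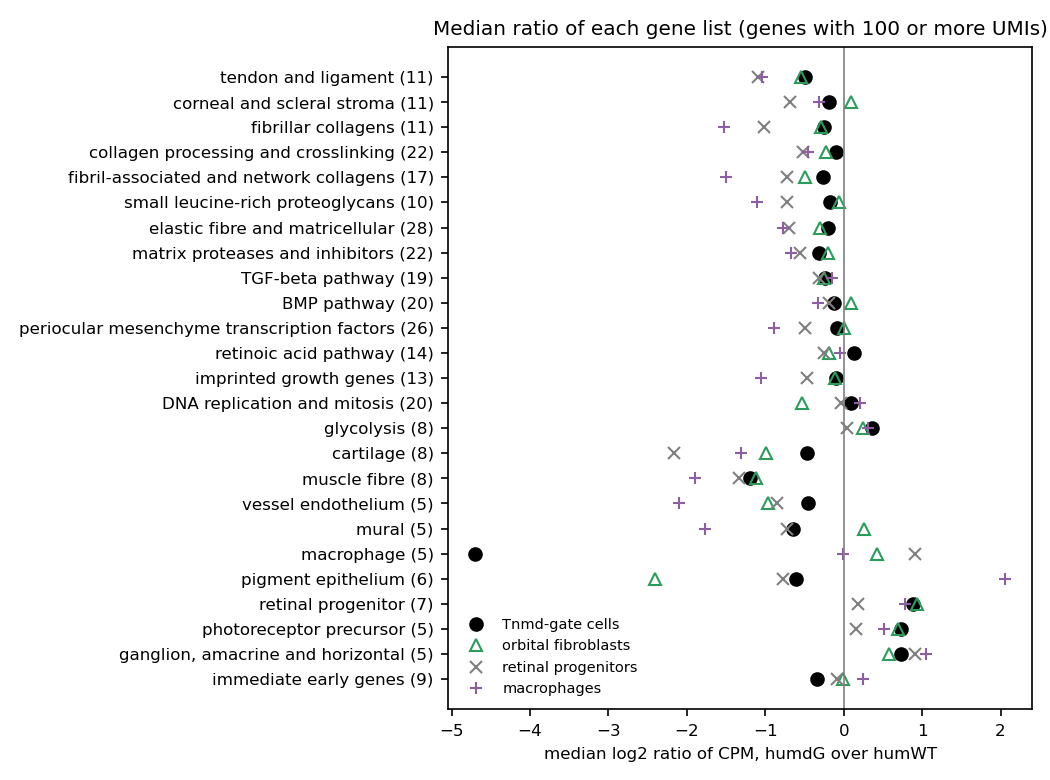
Median log2 ratio of humdG over humWT of each gene list, over genes with 100 or more UMIs (number in brackets), in Tnmd-gate cells, orbital fibroblasts, retinal progenitors and macrophages. Matrix lists lay between -0.50 and -0.10 in Tnmd-gate cells and lower in retinal progenitors, and the glycolysis list lay at 0.36.

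Signaling genes of the TGF-β and BMP families, which act on tendon and on scleral growth, had no gene past 2-fold once 10 CPM was added. Among 19 TGF-β pathway genes the median log2 ratio was -0.23 and 15 were below 0. The ligand Tgfb2 was at 162 and 135 CPM, a log2 ratio of -0.26, the receptor Tgfbr2 at 136 and 104 CPM, -0.39, and the target Pmepa1 at 240 and 284 CPM, 0.24. Among 20 BMP genes the median was -0.12. It was -0.47 in clusters 3 and 8, -0.29 without cells marked by other types and -0.28 without the top cell of each gene. The ligand Bmp4 was at 57.1 and 25.8 CPM, a log2 ratio of -1.14 (-1.48 to -0.82), and the targets Id1 and Id3 at 0.53 and 0.57. Id3 was at 193 CPM (60.4% of cells with a UMI) in humWT and 287 CPM (68.8%) in humdG. In clusters 3 and 8 Id3 was level, at 132 and 133 CPM. The receptors Bmpr1a and Bmpr2 were at -0.18 and -0.04, so ligand, receptor and target genes of the BMP list did not share a direction.

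Transcription factors of the periocular mesenchyme, which descends from neural crest and mesoderm, had a median log2 ratio of -0.08 over the 26 with enough UMIs, from -0.76 for Eya1 to 1.18 for Tfap2a, and none past 2-fold with 10 CPM added. Tfap2a, which neurons of the retina also express, was at 9.24 and 20.97 CPM, with 33.3% of its humdG UMIs in 1 cell, and Eya1 at 43.7 and 25.8 CPM. Foxp1 was at 403 and 345 CPM and Twist1 at 83.4 and 83.9 CPM. Foxc1 was lower, at 28.9 and 18.3 CPM, a log2 ratio of -0.66 (-1.07 to -0.26). Retinoic acid genes had a median of 0.13 over 14, a sign that turned with the choice of cells (-0.26 without cells marked by other types and -0.15 in clusters 3 and 8), with Crabp2, a retinoic acid binding protein, at 41.7 and 79.1 CPM, a log2 ratio of 0.92 (0.69 to 1.15), and Stra6, a retinol receptor, at -0.88. Crabp2 had a log2 ratio of 0.84 in retinal progenitors as well.

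Growth and metabolic genes differed by list. All 8 glycolysis genes had log2 ratios above 0, from 0.14 for Gapdh (634 and 696 CPM) to 0.51 for Tpi1, with Ldha at 290 and 397 CPM, a log2 ratio of 0.46 (0.36 to 0.55). Their median was 0.36 in Tnmd-gate cells, 0.37 in clusters 3 and 8, 0.24 in orbital fibroblasts, 0.31 in macrophages and 0.05 in retinal progenitors, and none was past 2-fold. Imprinted growth genes were split. Igf2, a fetal growth factor, was at 2456 and 1462 CPM, a log2 ratio of -0.75 (-0.79 to -0.70), and the neighboring H19 at -0.31, while Dlk1 and the cell cycle inhibitor gene Cdkn1c were at 0.38 and 0.34. Igf2 was at 2253 and 1113 CPM in cluster 3 and at 2893 and 2325 CPM in cluster 8. The 20 genes of DNA replication and mitosis had a median of 0.09, from -0.44 for Mcm2 to 0.85 for Ccnb1, and the sign turned with the choice of cells, at -0.30 with the gate applied after thinning and 0.43 without cells marked by other types.

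Of the genes past 2-fold between the libraries, those on the tendon, stroma and matrix lists were Egr1, Cilp, Col8a1 and Ptgds. Of the 22 higher in humdG, 7 were histone genes, among them Hist1h4d at 193 and 511 CPM, and 13 had over 20% of a library's UMIs in 1 cell. Cdk8, a kinase of the Mediator complex, was the highest, at 1545 and 4518 CPM, a log2 ratio of 1.55, and was about as far apart in retinal progenitors (1.55), orbital fibroblasts (1.74) and macrophages (1.34). Of the 22, 20 had the same sign in macrophages and 19 in retinal progenitors. The share of all genes with the same sign is not given here, so these counts are a description. Miat, Mir124-2hg, Nrg3 and Fgf15, genes of neurons and retinal progenitors, were also among them.

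Of the 43 genes lower in humdG, 30 had over 20% of a library's UMIs in 1 cell. In retinal progenitors 34 had the same sign and in macrophages 21, again a description only. Ttr, the pigment epithelium's transthyretin, was at 270 and 18.0 CPM, with 37.5% and 65.7% of its UMIs in 1 cell, and Rgr and Slc16a8, also of pigment epithelium, went with it, as did Ankfn1, at 74.1 and 11.8 CPM. The pigment epithelium list, 7 of 8 genes detected and Rpe65 at 0, summed to 1126 and 645 CPM, with Dct the most abundant at 369 and 307 CPM, of which 20.2% and 65.0% of the UMIs lay in 1 cell. The macrophage list, 7 of 7 detected, summed to 112 and 3.76 CPM, led by C1qb with 67.0% of the humWT UMIs in 1 cell, and Pf4, at 92.9 and 1.61 CPM, had 92.1% in 1 cell. The muscle fiber list, 9 of 9 detected and led by Acta1, summed to 330 and 143 CPM, and the giant sarcomere protein gene Ttn was at 353 and 108 CPM with 5.80% and 21.9% in 1 cell. Retinal progenitor markers went the other way, 570 and 822 CPM over 7 of 7 genes, led by Sfrp2. The part of these tissues' RNA in the differences within the gate was not tested. For Egr1, Cilp and C1qtnf3, also among the 43, no cell held more than 13.6% of the UMIs.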

How the data were processed

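Cells were dissociated with papain and sequenced on the 10x Genomics platform. Per the submitters' processing notes, the authors made the deposited UMI counts per gene and barcode with Cell Ranger 7.1.0 on mm10 and used Seurat 4.1.1. Whether introns were counted is not given in the sources used here. The deposited counts hold 32285 genes. The cell filter asked for over 500 detected genes and less than 15% mitochondrial RNA, and no doublet caller was run.

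Levels are the summed UMIs of a cell set, scaled to counts per 1e6 UMIs (CPM). Intervals are exact at 95% (Poisson for levels, Clopper-Pearson for shares, conditional binomial for ratios) and cover counting error only. A gene was called past 2-fold with 10 CPM added to each side, where both libraries together gave it 100 or more UMIs. With 1 library per genotype there were no tests. Cells were thinned to 1000 UMIs for shares.

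Clusters came from Leiden (leidenalg 0.10.2, resolution 0.7) on 1500 variable genes without the 12 genes of the gate, each library centered, 20 principal components and 15 neighbors, in Python 3.11.15. A cluster was called tendon-like when at least 3 tendon and ligament genes were raised 2-fold and found in at least 10% of its cells. The fold was over the other Tnmd-gate cells. At least 1 of these genes had to be among the 10 leading genes, and no other cell type list could score as high. Shallow clusters, whose median depth times 3 was under that of each library's Tnmd-gate cells, were not called. Gene positions are from GENCODE M21. Steps were tested on simulated data.

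The genes named were drawn from the 12 genes of the gate, Postn, Myrf and sex-linked genes, the most abundant, highest and lowest members of each list, the 15 genes with the highest folds over orbital fibroblasts and over all other cells, the 10 highest and 10 lowest genotype ratios and the 10 leading genes of each cluster, of which some are left unnamed. Other members of the lists were named for their roles after their values were seen. The members and lists were chosen with earlier results of these data known, and the immediate early list and 3 alternatives after these values were seen. Alternatives changed the cell filters, gate, depth, scaling, weighting and added CPM, and left out cells with markers of other types. Values of some list members are not reported here.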

Additional observations from a re-analysis of the deposited data

How the results depend on the processing

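No paired analysis was possible because there was 1 library per genotype, and for the same reason no replicate could be left out. Of the main results under alternative settings, 88 stayed within a limit and 49 moved past it. The limit was the counting interval for shares of cells and 1.5 times for counts of genes or cells. For list medians it was an interval of the median over the genes of the list, which is not counting error. The settings that left out the deepest member of each library, left out the top cell of each gene, or used clusters 3 and 8 only were chosen after seeing the data. The cause of the changes was not tested.

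The share of Tnmd-gate cells in humWT and humdG was 1.84% and 0.648% with at least 4 gate genes, 9.91% and 3.60% with no limit on orbital fibroblast genes, 3.00% and 1.08% without Tnmd in the gate, 1.40% and 0.481% without cells marked by other types, and 0.896% and 0.272% with the gate applied after thinning. It was higher in humWT in each. Thinned to 2000 UMIs, Tnmd was found in 42.1% and 35.4% and Scx in 18.4% of humWT cells.

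The number of genes tested changed with the setting, and the main counts were 22 higher and 43 lower of 10494. Genes past 2-fold higher in humdG numbered 232 of 13820 with no limit, 11 of 9995 without Tnmd and 12 of 5303 without marked cells. They numbered 12 of 10324 without the deepest member and 9 of 4140 in clusters 3 and 8. Of 10494 genes, 8 were higher without the top cell and 79 with 1 CPM added. Those lower numbered 22 of 8520 with at least 4 gate genes, 25 of 13820 with no limit and 24 of 5303 without marked cells. They numbered 136 of 6040 with the thinned gate, 28 of 4140 in clusters 3 and 8 and 107 of 10494 with 1 CPM added. Without marked cells, 5 of the 22 higher and 2 of the 43 lower genes were shared with the main setting.

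The median log2 ratio of the tendon list was -1.21 with no limit and -0.31 as a mean of per-cell CPM. That of the corneal and scleral list was 0.049 with the thinned gate and -0.51 in clusters 3 and 8. For fibrillar collagens it was -0.48 with no limit, -0.064 without marked cells, 0.012 with the thinned gate and 0.058 as a per-cell mean. For elastic fiber and matricellular genes it was -0.44, -0.071, -0.056 and 0.030 under these settings. For DNA replication it was 0.021 with at least 4 gate genes, -0.049 without Tnmd, 0.43 without marked cells, -0.30 with the thinned gate and 0.013 in clusters 3 and 8. The sign also turned for small leucine-rich proteoglycans (0.061 with the thinned gate and 0.089 as a per-cell mean), fibril-associated collagens (0.022 with the thinned gate), collagen processing (0.11 as a per-cell mean), immediate early genes (0.079 without marked cells) and retinoic acid genes (-0.26 without marked cells, -0.14 with no limit, -0.15 in clusters 3 and 8, -0.054 without the deepest 5% of cells). The lower matrix level thus depends on how cells were chosen and weighted.

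Genes past 2-fold over orbital fibroblasts numbered 110 as a per-cell mean. Over all other cells they numbered 192 with at least 4 gate genes, 472 with no limit, 205 without marked cells, 280 with the thinned gate and 229 as a per-cell mean. The genes tested under each setting were those of the genotype comparison, 10494 for the per-cell mean.

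Of the single genes compared, the sign of the log2 ratio changed for 16 of 46 with the thinned gate, 15 of 49 as a per-cell mean, 14 of 45 in clusters 3 and 8 and 7 of 48 without marked cells. With the thinned gate Tnmd was at 0.42, Prss35 at 0.34 and Thbs2 at 0.24, and as a per-cell mean at 0.059, 0.19 and 0.29, so the direction of these 3 gate genes turned under both settings. Among genes past 2-fold, it reversed for Pf4 (0.080), Miat (-1.47), Nrg3 (-1.86) and S100a8 (2.82) with the thinned gate, for Rgr and S100a8 (1.53 each) without marked cells, for S100a9 and S100a8 (0.43 each) without the top cell, and for Slc16a8 (0.88) and Nrg3 (-1.29) in clusters 3 and 8.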

Other observations

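Within the gate, genes that marked the tendon-like clusters over the other Tnmd-gate cells in both libraries included Htra1, 6.95-fold and 11.0-fold higher with 10 CPM added in humWT and humdG, and Scx, 7.87-fold and 14.2-fold. Egfl6 and Htra1 were at 618 and 701 CPM and at 999 and 1139 CPM in clusters 3 and 8, with log2 ratios of humdG over humWT of 0.18 and 0.19, whereas over all Tnmd-gate cells they were -0.28 and -0.34. The clusters were made from these cells' own genes and chosen by raised tendon and ligament genes, Scx among them, so the folds are a description.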
